A study of Homo sapiens with 12 samples.

Results

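The genes described here are 9 tight junction genes: the claudins CLDN1, CLDN3, CLDN4, CLDN7 and CLDN12, the occludin gene OCLN, the junctional adhesion molecule gene F11R, and the scaffold genes TJP1 and TJP3. They were chosen by gene symbol, and all 9 were found among the 13091 genes of the expression table. Expression was measured by RNA sequencing in AGS and MKN74, both established human gastric cancer cell lines. Each line gave 1 control library and 1 library of cells overexpressing ONECUT2, a homeodomain transcription factor, so there were 4 libraries in all. The vector and promoter used for overexpression, the number of clones or cultures and the duration are not given in the labels.

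The study asked what ONECUT2 does in gastric cancer cells. ONECUT2 itself was at 4.39 CPM, a unit that divides a gene's reads by the size of its library, in the AGS control and 18.3 in the AGS overexpression library, a ratio of 4.18 with a 95% counting interval of 3.55 to 4.94. In MKN74 it was at 5.14 and 57.6 CPM, a ratio of 11.2 (9.74 to 12.9). The listed genes held 36097456 to 38110453 reads per library, and 1 read was worth 0.0218 to 0.0244 CPM. All 5 epithelial markers examined were present in every library, with a summed level of 4729 to 5420 CPM in AGS and 8437 to 13673 CPM in MKN74. Of these, CDH1, the adherens junction protein E-cadherin, was at 7.63 and 8.74 CPM in AGS and at 211 and 284 CPM in MKN74. The epithelial sum was lower with overexpression in both lines, as were KRT8, at 3337 and 2670 CPM in AGS and 8729 and 5109 CPM in MKN74, and KRT18. CDH1 and EPCAM were higher with overexpression in both lines, EPCAM at 508 and 566 CPM in AGS and 457 and 673 CPM in MKN74, and KRT19 was higher in AGS and lower in MKN74. The part of these markers in the values below was not tested. None of 4 immune or 4 endothelial markers had a row, and of 4 fibroblast markers COL1A1 alone had one, at 6.77 to 18.3 CPM.

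Tight junctions seal the space between neighbouring epithelial cells near their apical surface. Claudins are proteins with several membrane-spanning segments that form the junction strands and set which ions pass. Occludin and junctional adhesion molecules lie in the same membrane domain, and scaffold proteins of the zonula occludens family tie the strands to the actin cytoskeleton. In the stomach the barrier they form separates acid and microbes from the tissue below, and several claudins are known to vary in level among gastric tumours.

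The sequences before the starts of 3 claudin genes are printed because CLDN1 and CLDN3 had the largest differences between the lines among the 9 genes, in opposite directions, and CLDN4 lies next to CLDN3 and its levels overlapped between the lines. Each is the 250 bases before the gene's start, 5′ to 3′ on the gene's strand, from RefSeq on GRCh38.p14: CLDN1 at chr3:190322447-190322696 on the minus strand, CLDN3 at chr7:73770271-73770520 on the minus strand and CLDN4 at chr7:73830746-73830995 on the plus strand. Capitals mark the GC box, GGGCGG or its reverse complement CCGCCC, and the TATA box core, TATAA.
CLDN1: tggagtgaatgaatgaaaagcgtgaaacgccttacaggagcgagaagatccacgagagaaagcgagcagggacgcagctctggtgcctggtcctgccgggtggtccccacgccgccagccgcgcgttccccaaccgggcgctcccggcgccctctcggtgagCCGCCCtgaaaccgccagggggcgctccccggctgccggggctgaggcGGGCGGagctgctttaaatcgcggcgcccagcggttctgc
CLDN3: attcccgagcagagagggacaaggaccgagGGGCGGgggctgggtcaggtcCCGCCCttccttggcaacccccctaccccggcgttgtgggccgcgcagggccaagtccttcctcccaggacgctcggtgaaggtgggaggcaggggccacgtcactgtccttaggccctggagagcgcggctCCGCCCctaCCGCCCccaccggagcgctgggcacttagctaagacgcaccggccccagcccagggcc
CLDN4: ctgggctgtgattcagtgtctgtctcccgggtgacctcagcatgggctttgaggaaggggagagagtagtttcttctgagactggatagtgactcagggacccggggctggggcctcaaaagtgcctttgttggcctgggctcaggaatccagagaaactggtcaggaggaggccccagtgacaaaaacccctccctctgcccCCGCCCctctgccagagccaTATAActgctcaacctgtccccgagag

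The window of CLDN1 holds 2 GC boxes, 28 CG dinucleotides and no TATAA, and 68.8% of its bases are G or C. CLDN3 has 4 GC boxes, 19 CG dinucleotides and 71.6% G or C, also without TATAA. CLDN4 differs in its composition: 1 GC box, 1 TATAA, 4 CG dinucleotides and 58.8% G or C. Over all 35116 windows of this length in the RefSeq table, the median was 11 CG dinucleotides, with quartiles of 3 and 23, and 58% G or C. CLDN1 therefore lay above the upper quartile in CG dinucleotides, and CLDN3 and CLDN4 within the quartiles.

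Of the 9 genes 8 are in that table, with 14 windows, since some have several starts. Letters were searched on both strands. A GC box was found in 10 of the 14 windows (71.4%) and in 42.6% of all windows, and TATAA or TTATA in 2 (14.3%, CLDN4 and CLDN7) against 18.9%. The E-box CAGGTG or CACCTG, which the claudin repressors of the SNAI and ZEB families bind, was found in 5 windows (35.7%), from OCLN, TJP1, CLDN7 and TJP3, and in 17.5% of all. The ETS core GGAAG or CTTCC was found in 11 (78.6%) against 65.1%. The ONECUT core ATCGAT and its variant ATTGAT or ATCAAT were found in 0 of the 14 windows, against 0.655% and 5.58% of all windows. These matches describe letters, and a missing match says only that those letters are not in the window.

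Among the claudins, CLDN1, a strand-forming claudin of barrier epithelia, was at 56.1 CPM in the AGS control, 106 in the AGS overexpression library, 9.38 in the MKN74 control and 6.83 in the MKN74 overexpression library, from 2301, 4568, 392 and 313 reads. Both AGS libraries lay above both MKN74 libraries, and overexpression went with a higher level in AGS and a lower one in MKN74. The ratio of overexpression to control was 1.88 (95% counting interval 1.79 to 1.98) in AGS and 0.728 (0.625 to 0.847) in MKN74. These intervals cover counting error alone: with 1 library per line and condition, a change within a line could not be tested against replicates. In bulk RNA, fewer cells with a transcript and less of it per cell cannot be told apart. CLDN16, whose RefSeq span holds CLDN1, had no row, and strand was not given, so reads of the pair could not be separated.

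CLDN3, a claudin known for tightening the junction, had 0 reads in both AGS libraries, which allows up to 0.0731 CPM in the control and 0.0694 CPM with overexpression at 3 reads. In MKN74 it was at 1.82 CPM in the control and 5.21 CPM with overexpression, from 76 and 239 reads. The transcript was therefore detected in MKN74 and not detectable at this depth in AGS. Within MKN74 the ratio was 2.87 (2.21 to 3.76). The MKN74 level of CLDN3 was 24.9 times the floor of 3 reads in the AGS library in controls, and 75.1 times in the overexpression arm. These values leave out counting error in the MKN74 reads. The lower limit of the counting interval for MKN74 over AGS was 19.7-fold in controls and 60.6-fold with overexpression.

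CLDN4, which is often abundant in gastrointestinal epithelium and its tumours, was at 299 CPM in the AGS control and 500.5 in AGS overexpression, and at 346 and 438 CPM in the MKN74 libraries. The overexpression library was higher in each line, and the lines overlapped. Its ratio was 1.67 (1.64 to 1.71) in AGS and 1.26 (1.24 to 1.29) in MKN74. CLDN4 and CLDN3 are adjacent genes, yet CLDN3 had no read in the libraries where CLDN4 had 12270 and 21644 reads.

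CLDN7, a claudin found along the lateral membrane as well as in the junction, was at 229 and 432 CPM in the AGS control and overexpression libraries and at 173 and 202 CPM in those of MKN74. Both AGS libraries lay above both MKN74 libraries. The ratio was 1.89 (1.84 to 1.94) in AGS and 1.17 (1.13 to 1.21) in MKN74. CLDN12, a claudin that lacks the usual tail motif for binding scaffold proteins, was at 45.7 and 60.4 CPM in AGS and at 35.0 and 34.7 CPM in MKN74. Its ratio was 1.32 (1.24 to 1.40) in AGS and 0.991 (0.923 to 1.07) in MKN74, where the interval includes 1. For CLDN12, too, the AGS libraries were the higher ones.

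**Figure D1:**
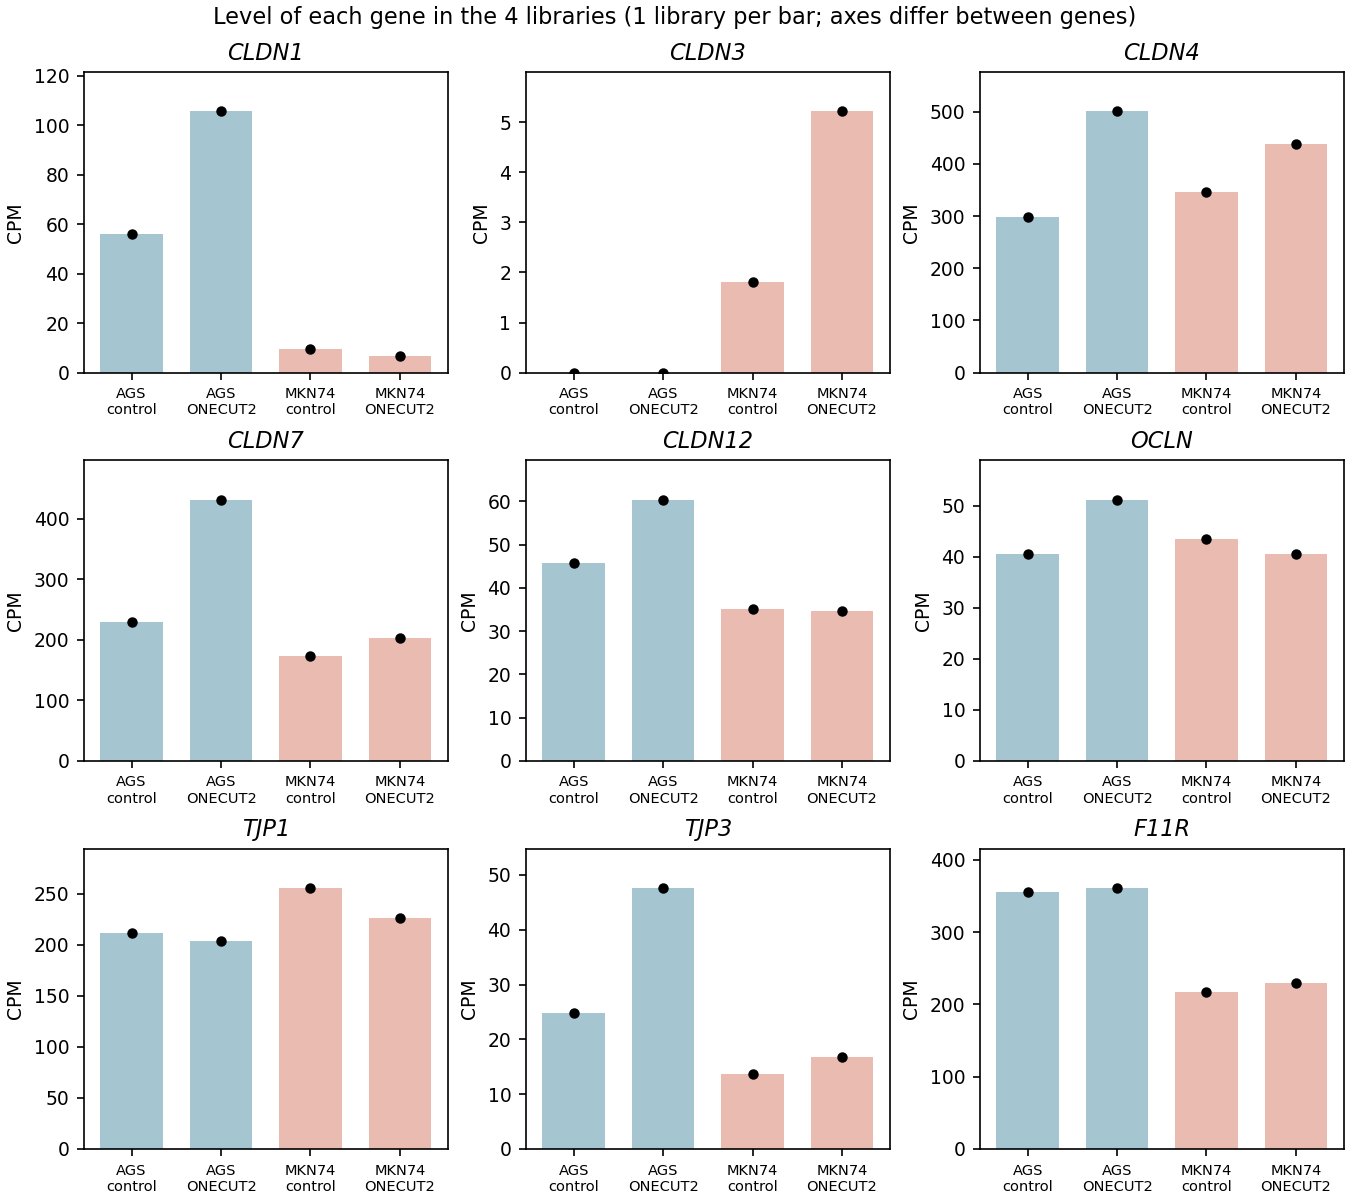
CPM of each of the 9 genes (vertical axes, one scale per gene) in the 4 libraries; each bar with its point is 1 library, so there are no error bars. CLDN1 reached 106 CPM in AGS overexpression and 6.83 CPM in MKN74 overexpression, and CLDN3 had bars in MKN74 alone.

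OCLN encodes occludin, a membrane protein of the junction strands. In AGS its level was 40.6 CPM in the control and 51.2 CPM with overexpression, and in MKN74 it was 43.6 and 40.7 CPM. These values span a narrow range, and the lines overlapped. The ratio was 1.26 (1.18 to 1.34) in AGS and 0.933 (0.874 to 0.996) in MKN74. RefSeq lists a transcribed pseudogene, OCLNP1, so reads could have been split between copies, and the level is uncertain. F11R, which encodes the adhesion molecule JAM-A, was at 356 and 361 CPM in AGS and at 217 and 230.0 CPM in MKN74. Its ratio was 1.01 (0.992 to 1.04) in AGS and 1.06 (1.03 to 1.09) in MKN74, so F11R differed more between the lines than between the arms. The AGS value lay on the other side of 0 when libraries were set to a common median, at -0.02 on the log2 scale.

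The scaffold genes differed from each other. TJP1, encoding ZO-1, was at 211 and 203 CPM in the AGS control and overexpression libraries and at 256 and 226 CPM in those of MKN74. Its ratio was 0.960 (0.932 to 0.990) in AGS and 0.885 (0.862 to 0.910) in MKN74, and the AGS value turned to 0.04 on the log2 scale under quantile normalization. Both MKN74 libraries lay above both AGS libraries. RefSeq also lists a TJP1 pseudogene, so this level carries the same uncertainty as OCLN. TJP3, encoding ZO-3, a scaffold largely of epithelia, was at 24.9 and 47.7 CPM in AGS and at 13.7 and 16.7 CPM in MKN74. Its ratio was 1.91 (1.78 to 2.07) in AGS and 1.22 (1.10 to 1.36) in MKN74, with both AGS libraries above both MKN74 libraries.

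**Figure D2:**
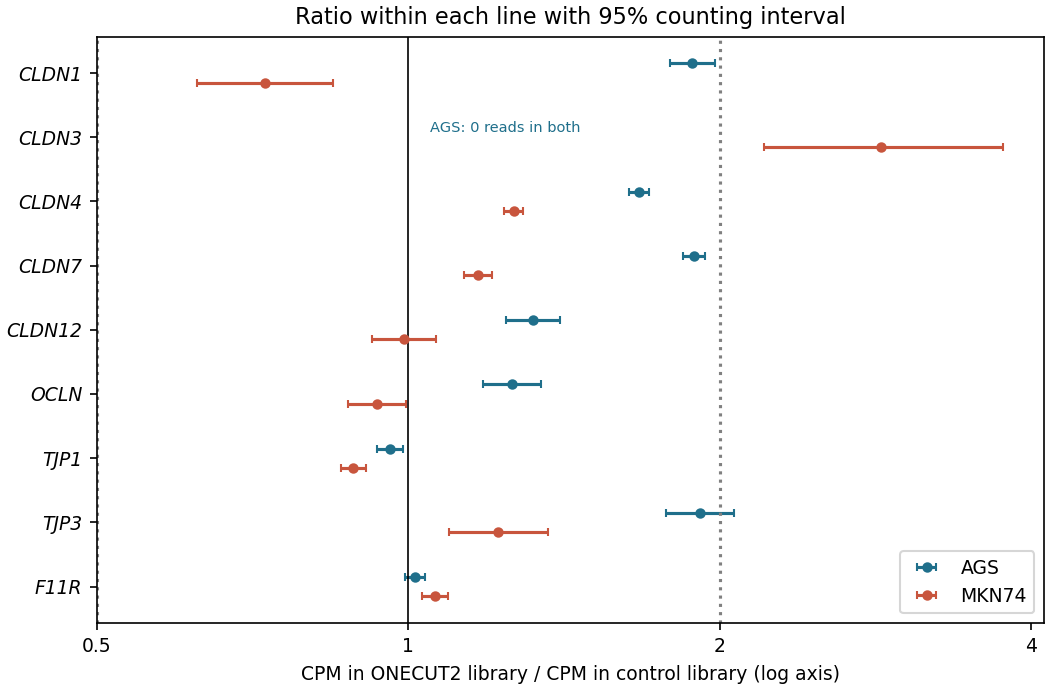
Ratio of CPM in the ONECUT2 overexpression library to the control library (horizontal log axis) for each gene in AGS and MKN74; bars are 95% counting intervals and dotted lines mark a ratio of 2 and its inverse. In AGS the ratios of CLDN1, CLDN7 and TJP3 were 1.88, 1.89 and 1.91, and in MKN74 CLDN3 stood at 2.87 and CLDN1 at 0.728.

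A gene counted as measured in a line where its mean there reached 1 CPM. On the log2(CPM + 1) scale, which understates the change of low genes, 8 of the 9 genes were measured in AGS. None of the 8 was 2-fold higher, where 4.19% of the 11675 genes measured were, and none was 2-fold lower, where 0.728% were. At 1.5-fold, CLDN1, CLDN4, CLDN7 and TJP3 were higher, 4 of 8 against 11.2% of all genes, and 0 of 8 were lower against 5.73%. The median change in AGS was 0.57 over the 8 genes and -0.003 over all genes measured, and 7 of the 8 lay above 0. In MKN74 all 9 were measured, and CLDN3 was the 1 gene at least 2-fold higher, at a change of 1.14, where 3.26% of 11914 genes were. None was 2-fold lower, where 1.35% were. At 1.5-fold the count stayed at 1 of 9 higher and 0 lower, with backgrounds of 6.61% and 4.46%. The median over the 9 genes in MKN74 was 0.09, against -0.02 over all genes, with 5 above 0 and 4 below.

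The 4 genes past 1.5-fold in AGS had changes of 0.74 to 0.91 there. All genes measured in AGS had a 5th to 95th percentile range of -0.61 to 0.93, so these changes lay within it. In MKN74 that range was -0.55 to 0.72, and CLDN3 lay above it. CLDN3 is a low gene whose change depends on the pseudocount: it was 0.92 with a pseudocount of 2, under 2-fold, 1.14 with 1 and 1.47 with 0.1. With a minimum mean of 5 CPM it is not among the genes measured, so the count of 1 became 0 there as well as with a pseudocount of 2.

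For the effect common to both lines, limma was fitted to the log2 values with line as a block. With Benjamini-Hochberg adjustment it called 0 of the 9 genes and 0% of 12340 genes, with 566 of all genes and CLDN4 alone of the 9 at an unadjusted p under 0.05. A fit with voom weights also called 0. In limma the effect on CLDN4 was 0.54 ± 0.19 (SE) on the log2 scale, higher in both lines, with an unadjusted p of 0.0432 and an adjusted p of 0.800. TJP3 had 0.59 ± 0.23 and CLDN7 0.57 ± 0.23, each with a limma adjusted p of 0.800. For TJP1 the limma estimate was -0.12 ± 0.16 with an adjusted p of 0.870. The fit has 1 residual degree of freedom, so a gene that misses the threshold is not shown to be unchanged. ONECUT2 itself was not called, with a limma estimate of 2.55 ± 0.38 and an adjusted p of 0.800.

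The log2 change in AGS minus that in MKN74 was above 0 for 7 of the 8 genes measured in both lines, all but F11R, though for TJP1 both changes were below 0 and the AGS one was the smaller. The median of this difference was 0.42 over the 8 genes and -0.02 over the 10766 genes measured in both lines. CLDN1 was the 1 gene of the 8 whose changes differed at least 2-fold, against 7.3% of 10766 genes. The AGS ratio of CLDN1 was 2.59 times its MKN74 ratio (2.21 to 3.03, counting error only). The same quotient was 1.62 (1.55 to 1.68) for CLDN7, 1.57 (1.37 to 1.79) for TJP3 and 1.35 (1.23 to 1.48) for OCLN. It was 1.33 (1.21 to 1.46) for CLDN12 and 1.32 (1.28 to 1.36) for CLDN4. TJP1 had 1.08 (1.04 to 1.13) and F11R 0.956 (0.922 to 0.991). With 1 library per line and condition the difference between the lines could not be tested, and ONECUT2 itself differed, at 18.3 CPM in AGS overexpression and 57.6 in MKN74 overexpression. The part of that dose in the difference was not tested.

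The lines differed more than the arms did for several of the genes. In 7 of the 9 genes, all but CLDN4 and OCLN, the 2 MKN74 libraries did not overlap with the 2 AGS libraries, against 76.6% of all genes. By limma, with Benjamini-Hochberg adjustment at 0.05, 4 of the 9 differed between the lines, against 43.2% of 12340 genes. The 1 residual degree of freedom of this fit is the difference between the lines in the overexpression change. The p-values therefore do not measure spread between replicate cultures of a line. CLDN3 was higher in MKN74, where 20.9% of genes were, and CLDN1, TJP3 and F11R were lower, where 22.3% were. CLDN3 reached the mean of 1 CPM needed for the fit through its MKN74 reads alone. Its call is therefore not independent of that filter. The share called among the 9 is thus close to that among all genes.

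CLDN1 had a limma coefficient, MKN74 minus AGS, of -3.11 ± 0.35 (SE) on the log2 scale, with an adjusted p of 0.0050. It was 5.98-fold higher in the AGS than in the MKN74 control (5.37 to 6.68) and 15.5-fold higher in AGS than in MKN74 overexpression (13.8 to 17.4). CLDN3 had a limma coefficient of 2.07 ± 0.38 with an adjusted p of 0.0161, a value that depends on the pseudocount because AGS had no reads. TJP3 had -1.14 ± 0.23 with a limma adjusted p of 0.0204, and its level was 1.82-fold higher in AGS in controls and 2.85-fold higher with overexpression. F11R had -0.68 ± 0.16 and a limma adjusted p of 0.0310.

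The other 5 genes missed the threshold in limma. CLDN7 had -0.75 ± 0.23 (adjusted p 0.0579 in limma) and CLDN12 -0.58 ± 0.19 (0.0652). TJP1 had 0.21 ± 0.16 with a limma adjusted p of 0.327 and OCLN -0.11 ± 0.19 with 0.649. CLDN4 had a coefficient of 0.0093 ± 0.19 and a limma adjusted p of 0.973, with single differences of 0.21 in controls and -0.19 in overexpression. At 2-fold in both arms, CLDN3 was the 1 gene of 9 higher in MKN74, against 10.7% of genes, and CLDN1 the 1 gene lower, against 12.9%. At 4-fold in both arms on this scale, 0 of 9 were higher in MKN74 against 4.63%, and CLDN1 was the 1 lower against 5.25%.

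Several of these limma calls were lost when 1 library was left out. Those fits also drop the overexpression term and hold fewer libraries, so a lost call cannot be laid to the single library. CLDN3 kept its coefficient without the AGS control or AGS overexpression, which could not be otherwise, since both had 0 reads of it. With line as the sole term and 1 library left out, CLDN1 lost its call without the MKN74 control (adjusted p 0.0628) or without MKN74 overexpression (0.0706), and CLDN3 without the AGS control (0.0984) or AGS overexpression (0.108). TJP3 and F11R lost theirs in limma without AGS overexpression (0.114 and 0.0509), without the MKN74 control (0.286 and 0.156) and without MKN74 overexpression (0.209 and 0.127). Without the AGS control, CLDN7 (0.0333) and CLDN12 (0.0412) passed in limma. In every one of these fits CLDN1, TJP3 and F11R were lower in MKN74 and CLDN3 higher. These directions could not change, because the libraries of the lines did not overlap for these genes.

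**Figure D3:**
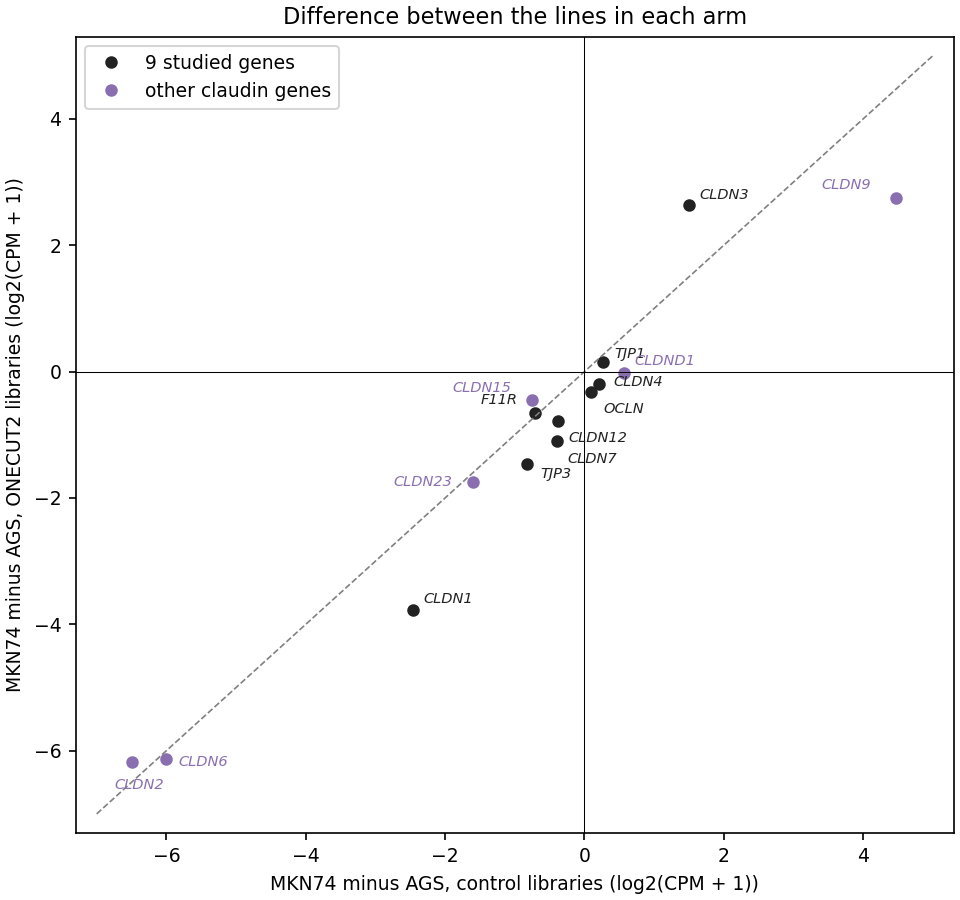
Difference MKN74 minus AGS on the log2(CPM + 1) scale, in the control libraries (horizontal axis) and in the ONECUT2 libraries (vertical axis); each point is a gene, and the dashed line marks equal differences. CLDN1 lay at -2.46 and -3.77, CLDN3 at 1.49 and 2.64, and CLDN9 at 4.47 and 2.75, while CLDN2 and CLDN6 lay past -6.00 on both axes.

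Of 19 symbols listed for other claudins and claudin-domain genes, 6 had rows, and the other claudins were not analysed here. Among these 6, CLDN9 was the 1 gene 2-fold higher in AGS, where 4.19% of all genes were. It went from 0.512 to 2.40 CPM, a ratio of 4.70 (2.92 to 7.91). In MKN74 it was at 32.6 CPM in the control and 21.9 CPM with overexpression, a ratio of 0.673 (0.620 to 0.731). Like CLDN1, it was higher with overexpression in AGS and lower in MKN74, but its level was the higher in MKN74. None of the 3 measured in MKN74 was past 2-fold, against 3.26% of all genes higher and 1.35% lower. The medians were 0.41 in AGS and -0.20 in MKN74.

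The pore-forming claudin gene CLDN2 was at 98.2 and 74.3 CPM in AGS and at 0.0957 and 0.0436 CPM in MKN74. CLDN6, which is best known from embryonic epithelium, was at 70.8 and 95.4 CPM in AGS and at 0.120 and 0.371 CPM in MKN74. The MKN74 levels of both rest on few reads. By limma, CLDN9 was higher in MKN74, and CLDN2, CLDN6 and CLDN23 were lower, so that 1 of 6 was higher and 3 of 6 were lower, against 20.9% and 22.3% of all genes. CLDN23, named after its values were seen, was at 3.56 and 5.99 CPM in AGS and 0.502 and 1.09 CPM in MKN74. CLDN4, CLDN7 and CLDN12 had at least 1463 reads in each of the 4 libraries.

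Among 15 other membrane genes of the junction, 0 were 2-fold lower in either line, against 0.728% of all genes in AGS and 1.35% in MKN74. In MKN74 1 of 12 measured was 2-fold higher, where 3.26% of all genes were. This was JAM3, an adhesion molecule of the F11R family, at 2.01 and 5.45 CPM, against 0.293 and 0.301 in AGS. The medians were 0.38 in AGS and 0.46 in MKN74. Limma called 1 of the 15 higher in MKN74 and 7 lower, against 20.9% and 22.3% of all genes. LSR, a protein of junctions where 3 cells meet, was at 527 and 719 CPM in AGS and at 131 and 116 in MKN74, and the adhesion molecule gene ESAM at 14.1 and 21.3 CPM against 0.574 and 1.00.

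Of the 21 other scaffold and polarity genes, 18 were measured in AGS and 21 in MKN74. None was past 2-fold on the log2(CPM + 1) scale. The shares of all genes were 4.19% higher and 0.728% lower in AGS, and 3.26% and 1.35% in MKN74. The medians of the list were -0.02 in AGS and -0.04 in MKN74. Between the lines limma called 6 of 20 higher in MKN74, where 20.9% of all genes were, and 4 lower, where 22.3% were. MAGI1, a scaffold of the junction, was at 47.4 and 58.4 CPM in AGS and 9.43 and 4.41 in MKN74. As a ratio of CPM, MAGI1 was 2.14-fold lower with overexpression in MKN74 (1.80 to 2.55), and so was PARD3B, a polarity gene named after its values were seen, at 2.11-fold (1.75 to 2.56). AMOT, a binding partner of polarity complexes, was at 0.488 and 0.763 against 12.9 and 7.07 CPM.

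Of 17 regulator genes, 1 of 16 measured was 2-fold higher in AGS, where 4.19% of all genes were. This was ARHGEF2, a junction-associated exchange factor for RhoA, at 45.6 and 102 CPM. In MKN74 it stayed at 46.5 and 46.3 CPM. There 0 of 16 were past 2-fold on the log2(CPM + 1) scale, against 3.26% of all genes higher and 1.35% lower. The medians of the list were 0.04 in AGS and -0.05 in MKN74. Limma called 0 of 16 higher in MKN74 and 7 lower, against 20.9% and 22.3% of all genes. RAB13, a small GTPase that takes part in recycling junction proteins, was at 153 and 123 CPM in AGS and 1.00 and 2.33 in MKN74, a CPM ratio there of 2.32 (1.61 to 3.40). MYL9, a myosin light chain, was at 242 and 155 CPM against 1.72 and 1.61.

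**Figure D4:**
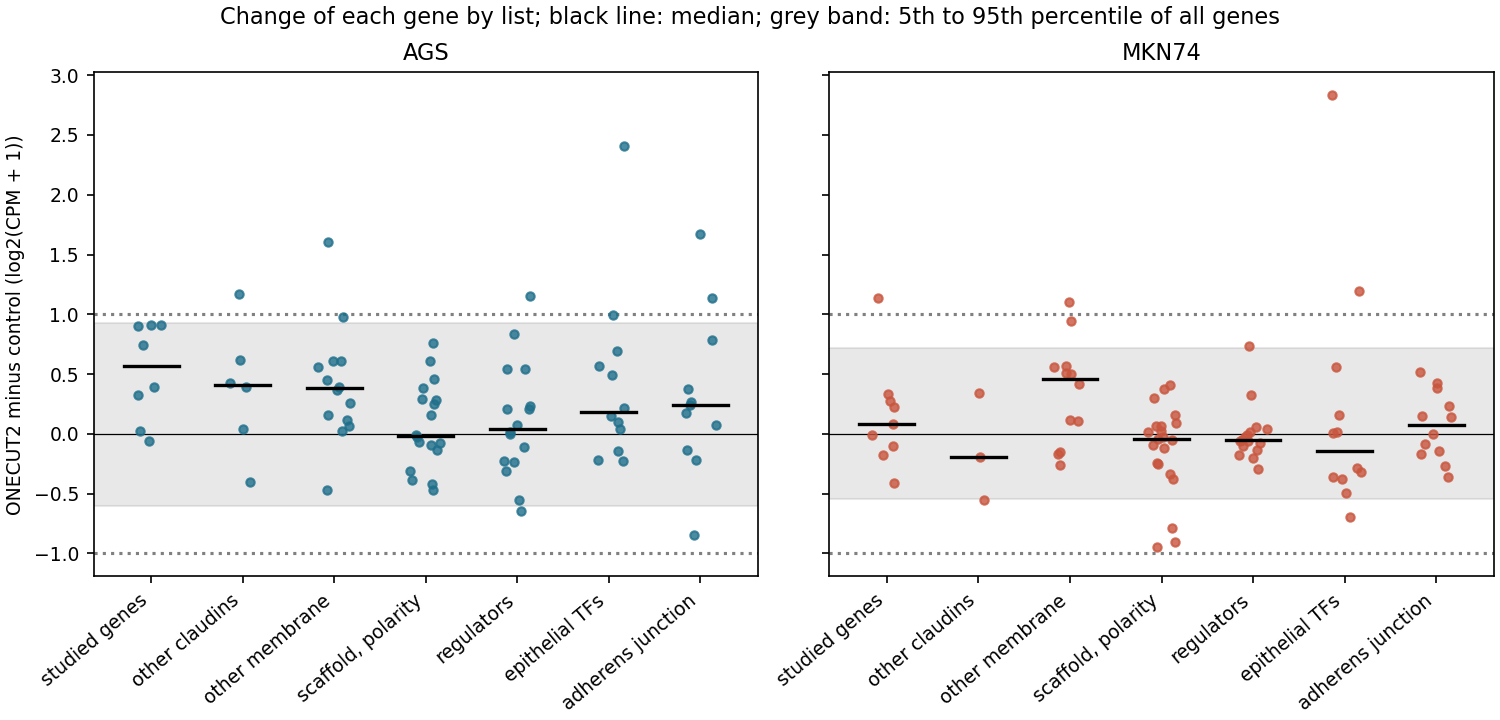
Change with ONECUT2 overexpression (log2(CPM + 1), vertical axis) of each measured gene by list, in AGS and in MKN74; black lines are medians, the grey band is the 5th to 95th percentile of all genes and dotted lines mark 2-fold. The median of the studied genes was 0.57 over 8 in AGS and 0.09 over 9 in MKN74, and that of the other membrane genes was 0.38 and 0.46.

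Transcription factors of epithelial identity were measured in both lines, 12 of 12. EHF, an epithelial ETS factor, was 2-fold higher in both, at 4.32 and 27.2 CPM in AGS and at 3.71 and 32.5 CPM in MKN74. ELF3, of the same family, was at 310 and 267 CPM in AGS and at 13.8 and 32.9 CPM in MKN74. On the log2(CPM + 1) scale these made 1 of 12 in AGS and 2 of 12 in MKN74, against 4.19% and 3.26% of all genes. None was 2-fold lower, against 0.728% and 1.35%, and the medians were 0.18 and -0.14. As a ratio of CPM, KLF4, named after its values were seen, was also past 2-fold in AGS. It was at 28.7 and 58.2 CPM there, a ratio of 2.03 (1.89 to 2.18). Limma called 3 of the 12 higher in MKN74 and 2 lower, against the same 20.9% and 22.3%. Of 7 symbols for claudin repressors, SNAI1 and SNAI3 had rows. SNAI1 was at 9.34 and 12.0 CPM in AGS and 5.12 and 5.85 CPM in MKN74, and SNAI3 at 1.71 and 3.68 CPM against 0.144 and 0.196 CPM. On the log2(CPM + 1) scale neither was past 2-fold in AGS, where their median was 0.56, and SNAI1, the 1 measured in MKN74, had 0.16 there. Both were lower in MKN74 by limma, as 22.3% of all genes were. In none of these lists did limma call a common effect of overexpression, as in 0% of all 12340 genes.

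The genes whose pattern over the 4 libraries lay nearest were sought where the mean was 5 CPM or more, by Euclidean distance of the mean-centred log2 values. For CLDN1, among 10342 genes, they were THRB, a thyroid hormone receptor, at a distance of 0.23, and ETS2, an ETS-family transcription factor, at 0.25. ETS2 was at 168 and 298 CPM in AGS and 26.8 and 25.3 CPM in MKN74. It was picked for its likeness to CLDN1, so the shared difference between the lines follows from that choice. CLDN3 had no reads in AGS, so its pattern, and with it the genes nearest to it, depend on the pseudocount of 1, and its line difference was 2.07 with that, 4.997 with 0.1 and 8.04 with voom. On the deposited scale, among 10343 genes, the nearest were TRIM14, a tripartite motif protein gene, at 0.13 and POMT1, an O-mannosyltransferase gene, at 0.22. TRIM14 was at 29.5 and 30.2 CPM in AGS and 94.1 and 187 CPM in MKN74.

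The genes beside CLDN3 and CLDN4 on chromosome 7, taken in RefSeq order after the claudin values had been seen, were read for comparison. ABHD11 was at 21.1 and 40.4 CPM in AGS, a ratio of 1.92 (1.76 to 2.08), and had a ratio of 1.16 (1.07 to 1.26) in MKN74. WBSCR27, on the other side, was at 0.975 and 3.122 CPM in AGS, a ratio of 3.20 (2.23 to 4.68), with 1.18 (0.910 to 1.54) in MKN74. CLDN4 lies between these in position, next to CLDN3. Its ratio was 1.67 in AGS, below both, and 1.26 in MKN74, above both. Beyond ABHD11 came STX1A, with a ratio of 1.43 (1.18 to 1.73) in AGS and 0.981 (0.814 to 1.18) in MKN74, and then WBSCR22, with 0.999 in AGS and 0.912 in MKN74. On chromosome 16 the adjacent genes CLDN9 and CLDN6 had opposite line differences, CLDN9 higher in MKN74 and CLDN6 higher in AGS, and TNFRSF12A beside them was at 92.8 to 125 CPM in all 4 libraries.

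**Figure D5:**
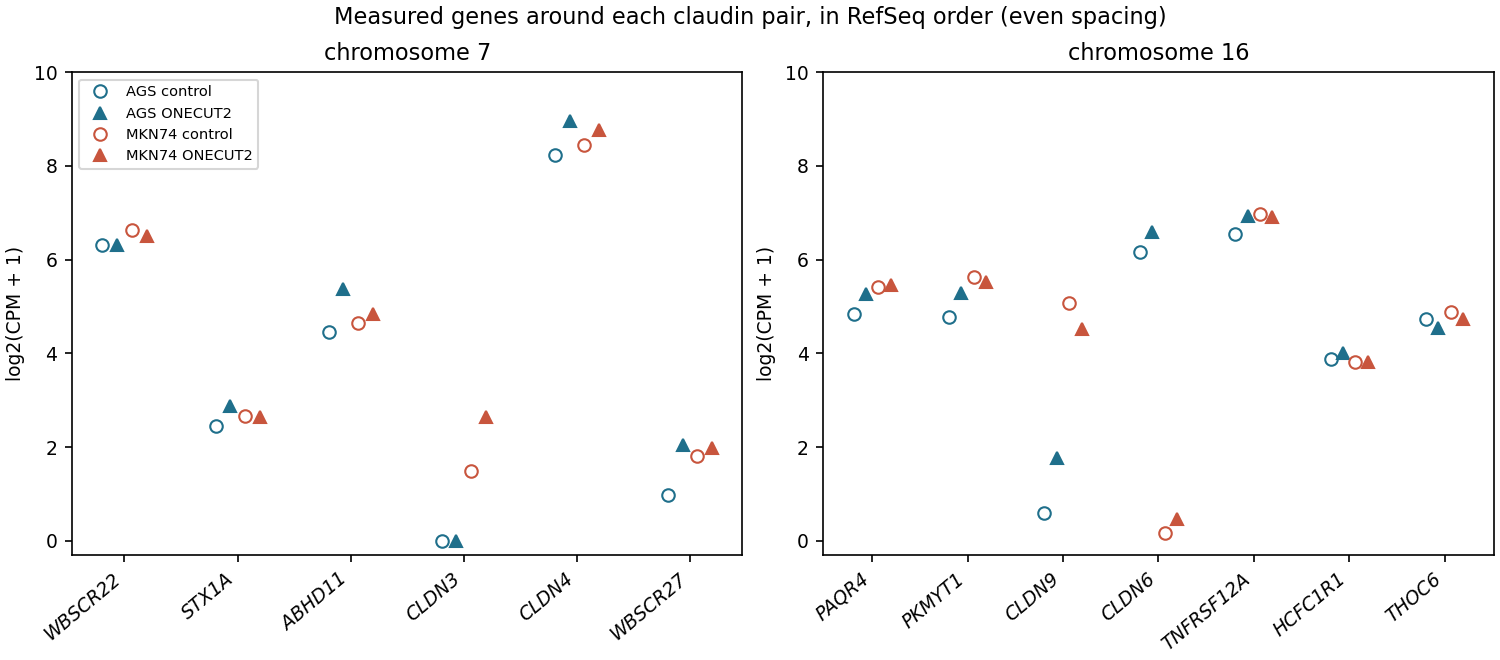
Level (log2(CPM + 1), vertical axis) of genes with rows around CLDN3 and CLDN4 on chromosome 7 and around CLDN9 and CLDN6 on chromosome 16, in RefSeq order with even spacing; each symbol is 1 library. CLDN3 lay at 0 in both AGS libraries beside CLDN4 at 299 and 500.5 CPM, and levels are to be compared between libraries within a gene.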

How the data were processed

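RNA sequencing of AGS and MKN74, 1 control and 1 ONECUT2 overexpression library each, was grouped by the sample titles. The labels also hold 8 chromatin samples, not used here. Per the labels' protocols, the kit was Illumina TruSeq RNA. Tools named in the submitters' processing notes, with no role, are STAR 2.5.1, edgeR 3.12.1, Bowtie2 2.1.0, CASAVA 1.7 and HOMER 4.9.1, and the build is hg19. For the counter, annotation and strand, the setting is not given in the sources used. Overlapping genes (CLDN1 lies within the span of CLDN16 in RefSeq) and near-identical copies are therefore uncertain. The labels do not say that libraries came from separate cultures.

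The authors deposited log2 values, found from the values themselves to be log2(CPM + 1). Whole reads were recovered from them, the largest deviation being 2.61e-08 of a read. The listed reads were 83.1% to 88.1% of the authors' implied totals. After 18 rows named by dates (0.218% to 0.239% of reads) were left out, 13091 genes remained.

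The 9 genes and the lists were chosen with earlier results of these data known. Within-line changes are differences of the log2 values for genes whose mean in the line reached 1 CPM. Ratios of CPM carry exact conditional binomial (Clopper-Pearson) intervals at 95%, and quotients of ratios log-normal ones. Intervals and floors of 3 reads cover only counting error, as PCR reads that carry no molecular identifiers are not independent molecules. limma 3.58.1 (R 4.3.3) had line and overexpression as terms and a mean trend, with p-values adjusted by Benjamini-Hochberg and a threshold of 0.05, for genes whose mean over all 4 libraries reached 1 CPM. On simulated data it was checked only that the median estimate of planted changes lay near the planted value. That check set no limit on recovery or false calls. The cell line pairs the libraries. Levels were not compared between genes, since no transcript lengths were used.

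Named list genes were at least 2-fold changed within a line, or at least 4-fold different between lines in both arms, up to 6 per list; 1 gene that met this rule is not reported here. For genes of the 9 with a 2-fold difference, the 2 nearest genes were named. Alternatives were pseudocounts of 2 and 0.1, quantile normalization, a minimum mean of 5 CPM, no filter, a common median, TMM factors on recovered reads, 1.5-fold, limma without trend, voom, the line left out, single libraries left out, and each arm alone. Tables were made with pandas 2.3.3, numpy 2.4.6 and scipy 1.17.1 in Python 3.11.15, and figures with matplotlib 3.10.9.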

Additional observations from a re-analysis of the deposited data

Results flagged for a closer look

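CLDN1 is listed here because its libraries moved in opposite directions in the lines: from 56.1 to 106 CPM with overexpression in AGS and from 9.38 to 6.83 CPM in MKN74. The AGS change exceeded the MKN74 change by 1.31 on the log2 scale. OCLN did the same on a smaller scale, from 40.6 to 51.2 CPM in AGS and from 43.6 to 40.7 CPM in MKN74, a difference of 0.42. Each line has 1 library per condition, so neither difference was tested.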

How the results depend on the processing

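Single-gene values kept their call and direction, or moved by less than their counting error, in 301 alternatives. These include by default the CLDN3 line difference in controls alone (1.495) and in overexpression libraries alone (2.635), against 2.065. Its counting interval had no upper limit, so no such comparison was possible. Of the others, 23 moved, 5 reversed, 2 were newly called and 10 no longer called. Sign changes of within-line changes under 2-fold were not counted as reversed, so those of F11R and TJP1 in AGS are among the moved. Summary counts were within 1.5 times of the reported value in 101 alternatives. With line left out (no replicate block), the common effect had 0 calls, as in the paired fit. In MKN74 the genes of the 9 that were 2-fold higher went from 1 to 0 with a pseudocount of 2 and to 0 with a mean of at least 5 CPM, which leaves CLDN3 out. In AGS they went from 0 to 1 under quantile normalization (CLDN7) and to 4 at 1.5-fold. Without a filter, 2 of the 9 differed 2-fold in their change between the lines, in place of 1. Over all genes, 388 higher in MKN74 became 228 at a mean of at least 5 CPM. At 1.5-fold the counts were 1313 higher and 669 lower in AGS, in place of 489 and 85, and 787 and 531 in MKN74, in place of 388 and 161. Leaving out single libraries, with line as the sole limma term and 1 residual degree of freedom, gave 1 to 5 of the 9 called between the lines and 1674 to 4072 genes in all, in place of 4 and 5330. The latter was 3253 without AGS overexpression and 1784 without MKN74 overexpression. The lone library left in a line is then assumed to vary like the others. The CLDN4 line difference reversed to -0.36 without the AGS control, -0.16 without MKN74 overexpression and -0.19 in overexpression libraries alone. OCLN reversed to 0.049 without AGS overexpression and 0.10 in controls alone. The cause was not tested. The edgeR test on recovered reads was not run, since the deposited unit is log2. CLDN3 is limited by depth in AGS, at a floor of 0.0694 to 0.0731 CPM.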

Other observations

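Adherens junctions lie just below tight junctions, and 12 of their genes had rows. In AGS 2 of 11 measured were 2-fold higher and 0 lower, against 4.19% and 0.728% of all genes. In MKN74 0 of 12 passed in either direction, against 3.26% higher and 1.35% lower. The genes, named after their values were seen, were PVRL4, which encodes nectin-4, at 8.46 and 29.2 CPM in AGS and 53.2 and 59.2 CPM in MKN74, and MLLT4, which encodes the scaffold afadin, at 55.6 and 123 CPM in AGS and 112 and 112 CPM in MKN74. For both, the AGS overexpression library was nearer to the MKN74 levels than the AGS control was. Both were named for being higher in AGS overexpression, and the share of all genes that moved nearer was not counted. Between the lines limma called 4 of 12 higher in MKN74 and 3 lower, against 20.9% and 22.3% of all genes. CDH1 and CDH3, which encodes P-cadherin, at 0.146 and 0.208 CPM in AGS and 159 and 187 CPM in MKN74, were over 4-fold higher in MKN74 in both arms. PVRL3, which encodes nectin-3, at 36.4 and 19.8 CPM in AGS and 1.17 and 2.12 CPM in MKN74, and VCL, which encodes vinculin, at 427 and 449 CPM against 84.7 and 65.8 CPM, were over 4-fold lower.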
